A study of Mus musculus with 4 samples.

Results

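The transcripts described here encode 9 proteins of folate one-carbon metabolism: the enzymes Shmt2, Mthfd2, Mthfd2l, Mthfd1l, Aldh1l2 and Mthfd1, the polyglutamate synthase Fpgs, the polyglutamate hydrolase Ggh and the folate carrier Slc19a1. They were chosen by symbol in a table of 36445 genes, and each symbol matched 1 row. The table gives transcript levels, by RNA sequencing, in MC38 cells (a cultured line from a mouse colon tumour) after 24 h with PBS (the vehicle, 2 libraries) or with 5-fluorouracil (5-FU) at 1 mM (2 libraries). No genetic change is labelled in either group. The labels do not tie replicates to separate cultures, so each p-value rests on the spread between libraries, which may be technical. In bulk RNA, fewer cells with a transcript and less of it per cell cannot be told apart.

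Folate carries single carbon units between serine, glycine, formate, purines, thymidylate and methionine. In mitochondria, Shmt2 moves a carbon from serine to tetrahydrofolate, Mthfd2 or Mthfd2l oxidises it to formyl-folate, and Mthfd1l releases formate, which Mthfd1 in the cytosol loads back onto folate. 5-FU acts on this network because its metabolite FdUMP locks thymidylate synthase in a complex with methylene-tetrahydrofolate, and polyglutamate tails, added by Fpgs and trimmed by Ggh, hold folates in the cell.

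Values are FPKM, the authors' fragment counts per unit of transcript length and of library size. Levels can be compared between genes within a library. Between libraries, FPKM does not correct for a shift in the make-up of the RNA. Summed over all genes, it came to 343598 and 359169 in PBS and 389882 and 387730 in 5-FU. Reads per library, estimated from the steps of the FPKM values, were about 41.3 to 41.6 M in PBS and 20.6 to 20.8 M in 5-FU. The 9 transcripts rested on about 469 reads (Fpgs, 5-FU replicate 2) to 24023 reads (Shmt2, PBS replicate 1). Across tested genes the median absolute log2 difference was 0.271 within the PBS pair and 0.0729 within the 5-FU pair. All 8 epithelial and colon markers examined (Epcam, Cdh1, Krt8, Krt18, Krt19, Krt20, Cdx2 and Vil1) stayed below 1 FPKM in every library, so the colon origin in the label was not visible at these genes. The 6 mesenchymal markers summed to 1429 and 1575 FPKM in PBS and 1382 and 1337 FPKM in 5-FU. Vim made up most of that sum, and within it Fn1 fell from 389.2 and 588.0 to 226.7 and 218.3 FPKM (limma adjusted p = 0.0155), while Vim stood at 972.9 and 889.7 FPKM in PBS and 1069 and 1036 FPKM in 5-FU (0.278). The 6 leukocyte markers summed to 1.58 to 3.19 FPKM over the 4 libraries. Nearly all of that was Lyz2, at 1.57 and 3.19 FPKM in PBS and 2.43 and 2.64 FPKM in 5-FU. The other 5 stayed below 1 FPKM, with Cd3e at 0 throughout. The 5 endothelial and erythroid markers summed to 1.78 to 3.57 FPKM. Most of that was Hba-a1, at 2.50 and 1.60 FPKM in PBS and 3.31 and 2.81 FPKM in 5-FU. The part of any other cell type in the results was not tested.

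Aldh1l2, Mthfd1l and Mthfd2l fell after 5-FU, 3 enzymes of the mitochondrial branch that act downstream of Shmt2. Aldh1l2 was 4.71-fold lower, Mthfd1l 3.34-fold lower and Mthfd2l 1.67-fold lower. Shmt2 and Mthfd2, the most abundant of the 9 in every library, did not pass the test, nor did Mthfd1, Fpgs, Ggh and Slc19a1. The test was limma on log2(FPKM + 1) over the 11644 genes that reached 1 FPKM in 2 or more libraries, and a gene was called when its Benjamini-Hochberg adjusted p (two-sided) was under 0.05. All 9 transcripts passed the filter on low values. The 3 members called lower and 0 called higher compare with 31.2% of all tested genes called lower, 22.1% called higher and 53.3% called in either direction. The share called lower was thus near the background. At an unadjusted limma p under 0.05, 1 member was higher (Mthfd2) and 4 were lower (Mthfd1 besides the 3). At that cut 3010 of the 11644 tested genes were higher and 4057 lower. The median log2 difference was -0.55 over the 9 and -0.10 over all tested genes. Libraries of the groups did not overlap for 7 of the 9, against 81% of all tested genes.

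**Figure D1:**
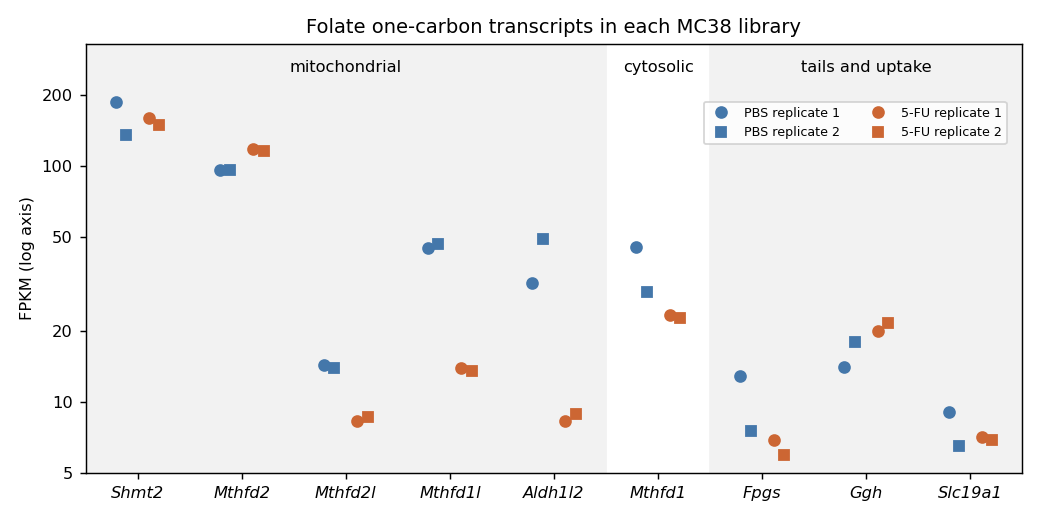
FPKM of each of the 9 transcripts in each library, on a log axis, with PBS in blue and 5-FU in orange and replicate 1 as circles and replicate 2 as squares. Mthfd1l and Aldh1l2 show the widest gap between the groups, while the 5-FU libraries of Shmt2 and Slc19a1 lie between the PBS libraries.

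Sequence before the start site is shown for 2 transcripts that fell (Mthfd1l and Mthfd2l) and for 2 abundant ones that did not pass the test (Shmt2 and Mthfd2), so that the promoters of the same mitochondrial route can be set side by side. The sequences are from RefSeq on GRCm38.p6, 5′ to 3′ on the strand of the gene, limited to the 250 bases before the start and to bases outside annotated exons. They cover chr10:3972825-3973074 (plus strand), chr5:90930946-90931116 (plus), chr10:127522445-127522694 (minus) and chr6:83317607-83317854 (minus). The RefSeq start used for Mthfd2 lies inside the gene as GENCODE places it (83305691 to 83325908), so that stretch is not upstream of the whole gene. The Mthfd2l window ran on to 90931195, and its last bases, in a Mthfd2l exon, are not shown. Capitals mark a CCAAT box, a GC box (GGGCGG) or the NRF1 palindrome (GCGCA followed directly by its reverse complement), on either strand.
Mthfd1l upstream stretch: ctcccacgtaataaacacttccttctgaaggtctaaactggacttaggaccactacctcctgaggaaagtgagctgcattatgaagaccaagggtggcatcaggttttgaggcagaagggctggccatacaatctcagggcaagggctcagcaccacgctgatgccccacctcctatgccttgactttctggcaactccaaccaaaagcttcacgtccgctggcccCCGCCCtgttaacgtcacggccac
Mthfd2l upstream stretch: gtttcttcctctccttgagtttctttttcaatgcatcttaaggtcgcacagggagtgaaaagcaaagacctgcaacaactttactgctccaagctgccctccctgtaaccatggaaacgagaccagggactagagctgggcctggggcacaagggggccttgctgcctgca
Shmt2 upstream stretch: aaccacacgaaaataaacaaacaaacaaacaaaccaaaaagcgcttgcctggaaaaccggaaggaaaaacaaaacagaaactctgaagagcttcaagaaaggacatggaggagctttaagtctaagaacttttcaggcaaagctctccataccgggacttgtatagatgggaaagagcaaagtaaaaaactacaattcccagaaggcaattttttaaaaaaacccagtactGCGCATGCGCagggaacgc
Mthfd2 upstream stretch: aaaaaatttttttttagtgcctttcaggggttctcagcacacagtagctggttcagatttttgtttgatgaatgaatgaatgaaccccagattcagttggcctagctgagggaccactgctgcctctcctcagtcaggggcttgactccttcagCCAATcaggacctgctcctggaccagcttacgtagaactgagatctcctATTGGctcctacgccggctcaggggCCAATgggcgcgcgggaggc

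The stretch of Mthfd2 holds 3 CCAAT boxes, that of Mthfd1l 1 GC box, that of Shmt2 1 NRF1 palindrome, and that of Mthfd2l none of these. Over the 32851 RefSeq windows of 250 bases, 33.8% held CCAAT, 32.7% held GGGCGG and 0.782% held the NRF1 palindrome. Of the 9 genes, 7 matched a promoter entry; Aldh1l2 and Ggh were the others. The ATF4 composite element TGATGNAA (in 3.45% of windows), the cyclic AMP element TGACGTCA (1.55%), the E-box CACGTG (6.02%) and the E2F words TTTCGCGC, TTTGGCGC or TTTCCCGC (1.53%) were searched on both strands and found in none of the 8 windows of these 7 genes. No 2 motifs overlapped. A match is a description of letters in the window only.

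Shmt2, the mitochondrial serine hydroxymethyltransferase at the entry of the branch, was the highest of the 9 at 187.0 and 135.3 FPKM in PBS replicates 1 and 2 and 159.6 and 149.3 FPKM in 5-FU replicates 1 and 2. Both 5-FU libraries lay between the PBS libraries. The log2 difference was -0.04 ± 0.18 (SE), with a 95% interval of -0.53 to 0.44 (limma adjusted p = 0.859). It was 0.19 when PBS replicate 1 was left out and -0.27 when PBS replicate 2 was, so the sign for Shmt2 turned on the PBS library used. Its mean level was above that of 97.5% of tested genes in PBS and 96.7% in 5-FU. Shmt2 (ENSMUSG00000025403) spans chromosome 10, 127517123 to 127522444 on the minus strand.

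Mthfd2 encodes the NAD-dependent mitochondrial dehydrogenase and cyclohydrolase that is low in most adult tissues and high in many tumours. It measured 96.4 FPKM in each PBS library, and 117.9 and 116.5 FPKM in the 5-FU libraries. The 5-FU libraries were both higher and the groups did not overlap, at a ratio of 1.22. The log2 difference was 0.28 ± 0.10 (SE; 95% interval 0.02 to 0.54), and it missed the threshold after adjustment (limma adjusted p = 0.0673). It passed, higher, with median-ratio scaling (adjusted p = 0.0287), and with quantile normalization its log2 difference was 0.03 (adjusted p = 0.83). With the replicate number as a block it was not called (adjusted p = 0.181). With any 1 library left out its log2 difference was 0.27 to 0.29. A fit without a PBS library takes its error from the close 5-FU pair. Mthfd2 (ENSMUSG00000005667) lies on chromosome 6, 83305691 to 83325908, minus strand.

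Mthfd2l encodes the paralogue that catalyses the same steps in mitochondria, and its level in PBS was far below that of Mthfd2. It measured 14.4 and 13.9 FPKM in PBS and 8.31 and 8.61 FPKM in 5-FU, with both 5-FU libraries lower. The fall was 0.68 log2 (SE 0.12, limma adjusted p = 0.0103). It was not called without 5-FU replicate 1 (adjusted p = 0.182) or 5-FU replicate 2 (0.167), where the spread rests on the PBS pair alone. Summed over Mthfd2 and Mthfd2l, the level was 110.8 and 110.3 FPKM in PBS and 126.2 and 125.1 FPKM in 5-FU, and was higher in both 5-FU libraries. Mthfd2l (ENSMUSG00000029376) spans chromosome 5, 90931117 to 91021368, plus strand.

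Mthfd1l encodes the mitochondrial formyl-tetrahydrofolate synthetase that releases formate. It measured 44.9 and 46.8 FPKM in PBS and 13.9 and 13.5 FPKM in 5-FU. The replicates lay close together in both groups, and the log2 difference was -1.67 ± 0.11 (SE, limma adjusted p = 0.0027). Among all tested genes, 4.12% had a lower difference. The call held in all 15 alternative settings run, with adjusted p from 1.68e-05 to 0.0482. Mthfd1l (ENSMUSG00000040675) spans chromosome 10, 3973118 to 4167081, plus strand.

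Aldh1l2 encodes the mitochondrial formyl-tetrahydrofolate dehydrogenase, which oxidises the carbon unit to carbon dioxide and makes NADPH. It measured 31.8 and 49.3 FPKM in PBS and 8.33 and 8.91 FPKM in 5-FU. The PBS libraries themselves differed 1.55-fold, and both were far above the 5-FU libraries. The log2 difference was -2.08 ± 0.23 (SE, limma adjusted p = 0.00426), and 1.51% of tested genes had a lower one. Without 5-FU replicate 1 the adjusted p was 0.052. Aldh1l2 (ENSMUSG00000020256) lies on chromosome 10, 83487450 to 83534140, minus strand. Its exons share 1056 bases with those of D10Wsu102e on the opposite strand, and no strand setting for the counting was found in the sources used here, so reads in that stretch cannot be assigned with certainty. D10Wsu102e went the other way, with 29.5 and 18.8 FPKM in PBS and 56.4 FPKM in each 5-FU library (adjusted p = 0.0126).

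Mthfd1 encodes the enzyme that takes up formate and interconverts the folate forms, in the cytosol. It measured 45.4 and 29.3 FPKM in PBS and 23.5 and 22.7 FPKM in 5-FU. The groups did not overlap, but the PBS libraries differed 1.55-fold. The log2 difference was -0.64 ± 0.23 (SE; 95% interval -1.24 to -0.04) and did not pass after adjustment (limma adjusted p = 0.0699). With PBS replicate 1 left out the log2 difference was -0.33, and with PBS replicate 2 left out -0.95. Those fits take their error from the close 5-FU pair. The difference was -0.66 without 5-FU replicate 1 and -0.61 without 5-FU replicate 2. Mthfd1 (ENSMUSG00000021048) spans chromosome 12, 76255298 to 76319803, plus strand.

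Fpgs, which adds the polyglutamate tail that keeps folates and antifolates in the cell, measured 12.9 and 7.51 FPKM in PBS and 6.92 and 5.98 FPKM in 5-FU. PBS replicate 2 lay nearer to the 5-FU libraries than to PBS replicate 1, and the groups did not overlap. The log2 difference was -0.55 ± 0.27 (SE; 95% interval -1.25 to 0.16; limma adjusted p = 0.147). Without PBS replicate 2 it was -0.90, and without PBS replicate 1 it was -0.19.

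Ggh, which removes the tail in the lysosome, measured 14.1 and 18.0 FPKM in PBS and 20.01 and 21.7 FPKM in 5-FU. Both 5-FU libraries were higher than both PBS libraries. The log2 difference was 0.37 ± 0.16 (SE; 95% interval -0.05 to 0.78; limma adjusted p = 0.109). Slc19a1, the reduced folate carrier of the plasma membrane, measured 9.09 and 6.49 FPKM in PBS and 7.08 and 6.87 FPKM in 5-FU, with both 5-FU libraries inside the PBS range. Its log2 difference was -0.12 ± 0.19 (SE; 95% interval -0.62 to 0.37; limma adjusted p = 0.599). Without PBS replicate 2, Ggh was called higher (0.53 log2, adjusted p = 0.00138) and Slc19a1 lower (-0.34 log2, adjusted p = 0.0101), and the fit then takes its error from the close 5-FU pair. Fpgs (ENSMUSG00000009566) lies on chromosome 2, 32682609 to 32704145, minus strand, Ggh (ENSMUSG00000073987) on chromosome 4, 20042052 to 20066750, plus strand, and Slc19a1 (ENSMUSG00000001436) on chromosome 10, 77032241 to 77061002, plus strand.

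**Figure D2:**
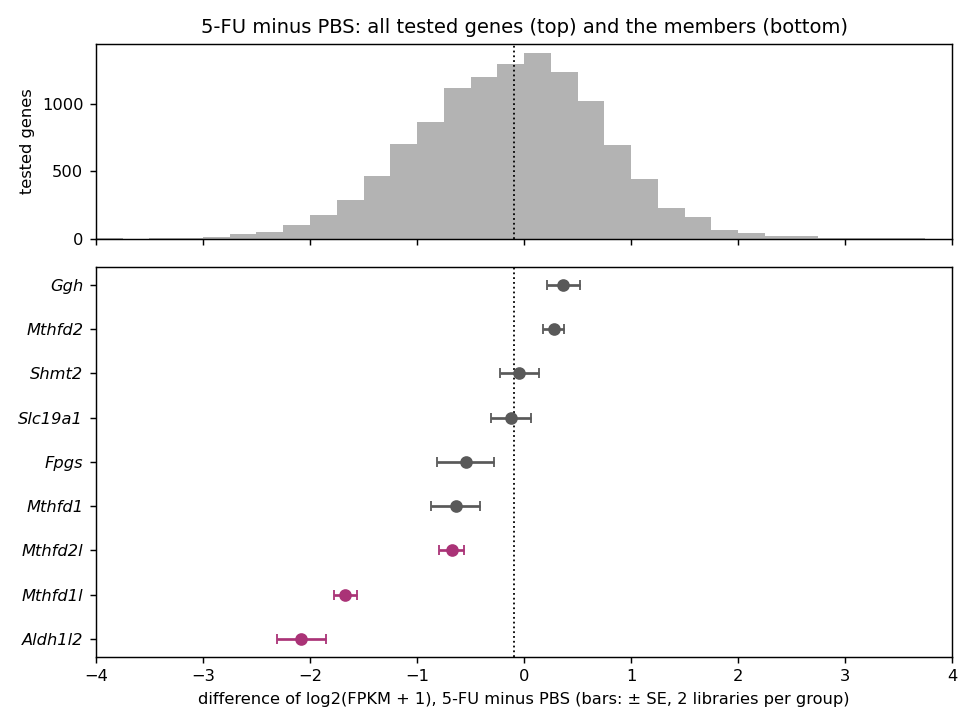
Top, histogram of the log2 difference (5-FU minus PBS) over all 11644 tested genes; bottom, the 9 transcripts with bars of ± SE, purple where called, and a dotted line at the median of all tested genes. Aldh1l2 at -2.08 and Mthfd1l at -1.67 lie in the lower tail, and the other 7 lie between -0.68 and 0.37.

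The paired transcripts were also set against each other within each library, where scaling between libraries cancels. Mthfd2 was 6.72 and 6.94 times as abundant as Mthfd2l in PBS and 14.2 and 13.5 times in 5-FU. Mthfd2 to Mthfd1l, a pair added after the values were seen, stood at 2.15 and 2.06 in PBS and 8.50 and 8.60 in 5-FU. Both 5-FU libraries lay far above both PBS libraries in these ratios. Mthfd2 to Mthfd1 was 2.12 and 3.29 in PBS and 5.02 and 5.14 in 5-FU. Mthfd1l to Mthfd1, mitochondrial against cytosolic formyl-folate synthetase, was 0.989 and 1.60 in PBS and 0.591 and 0.598 in 5-FU. Shmt2 to Shmt1, mitochondrial against cytosolic serine hydroxymethyltransferase, was 6.75 and 7.97 in PBS and 10.6 and 10.0 in 5-FU. Fpgs to Ggh was 0.913 and 0.417 in PBS and 0.346 and 0.275 in 5-FU. The groups did not overlap in any of the 6 ratios. Among single tested genes 81% did not overlap either, and the share among other gene pairs was not computed. With 2 against 2 libraries the smallest exact two-sided permutation p is 0.333, so these ratios are given as values.

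**Figure D3:**
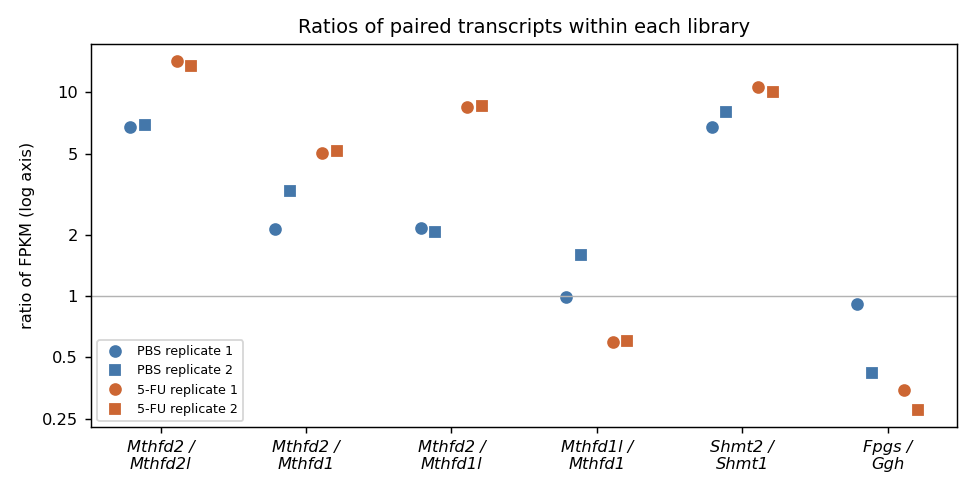
Ratio of FPKM between paired transcripts within each library, on a log axis with a line at 1, PBS in blue and 5-FU in orange. The Mthfd2 to Mthfd1l ratio is 2.06 to 2.15 in PBS and 8.50 to 8.60 in 5-FU, the widest gap of the 6 pairs.

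As a share of the summed FPKM of the 9 transcripts, Mthfd2 made up 21.1% and 23.9% in PBS and 32.3% and 32.9% in 5-FU. Mthfd1l went from 9.85% and 11.6% to 3.79% and 3.83%, and Aldh1l2 from 6.98% and 12.2% to 2.28% and 2.52%. The sum itself was 455.9 and 402.9 FPKM in PBS and 365.5 and 354.1 FPKM in 5-FU. Shmt2 and Mthfd2 together supplied most of it in every library.

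Gene span moved with these differences. The 3 called genes and Mthfd1 are the 4 longest of the 9, at 194.0 kb for Mthfd1l, 90.3 kb for Mthfd2l, 64.5 kb for Mthfd1 and 46.7 kb for Aldh1l2, and the other 5 span 5.32 to 28.8 kb. Over all tested protein-coding genes the median log2 difference was 0.03 for spans of 10 to 30 kb, -0.26 for 30 to 60 kb, -0.43 for 60 to 100 kb and -0.59 for 100 to 200 kb. With the trend over gene span removed, an alternative added after seeing the data, Aldh1l2 (-1.77, adjusted p = 0.00592) and Mthfd1l (-1.04, 0.00363) were still called, while Mthfd2l was not (-0.19, 0.209). Mthfd1, not called in the main fit either, moved from -0.64 to -0.24 (adjusted p = 0.408). Over all tested genes that fit called 3056 higher and 2759 lower, against 2578 and 3628 without it.

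**Figure D4:**
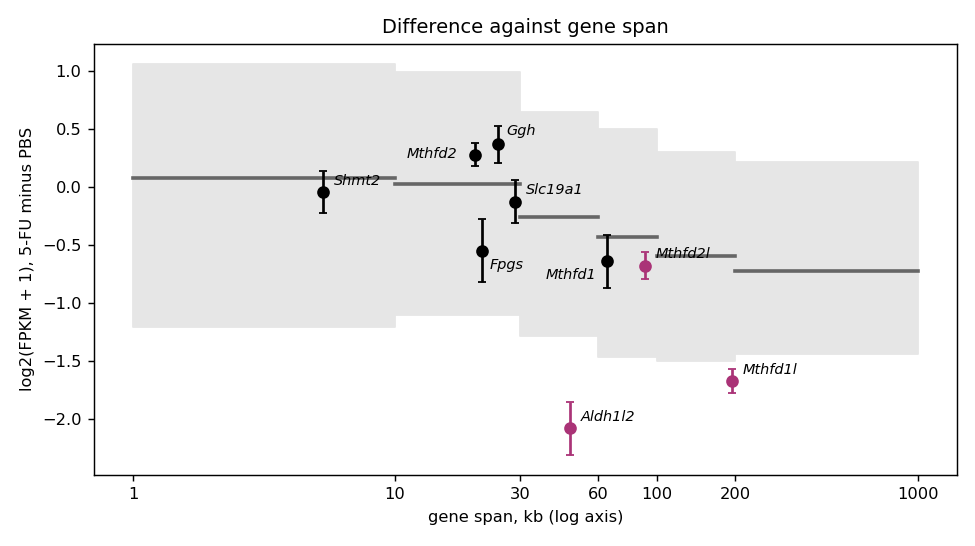
Log2 difference (5-FU minus PBS, ± SE) of the 9 transcripts against gene span on a log axis, purple where called; grey bars give the median of tested protein-coding genes in each span class and light bands their 10th to 90th percentile, with the outer classes drawn from 1 and to 1000 kb. Aldh1l2 and Mthfd1l lie below the band of their class, and Mthfd2l lies inside it.

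Shared sequence between the paralogues compared was short. The longest identical run was 20 bases between Mthfd2 and Mthfd2l, 20 between Mthfd1 and Mthfd1l, 19 between Shmt2 and Shmt1 and 22 between Aldh1l2 and Aldh1l1. Sequence shared with genes outside the set was searched by runs of 50 bases, which finds every run of at least 59. Such runs covered at least 10% of the longest transcript for Aldh1l2 alone, with D10Wsu102e, as above. Counted without that cut, runs were shared with 83 other genes for Mthfd2l, 10 for Aldh1l2, 2 for Fpgs and 1 for Shmt2. The part of such runs in the levels was not tested.

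Among 21 other genes of folate interconversion, transport and use, 13 were tested and 5 passed the test (median log2 difference 0.21). Over all tested genes 53.3% passed. Gcsh and Amt, which encode parts of the mitochondrial glycine cleavage system that also feeds carbon to folate, rose from 81.1 and 46.8 to 175.4 and 183.1 FPKM (adjusted p = 0.0116) and from 1.56 and 1.37 to 5.88 and 5.80 FPKM (adjusted p = 0.00326). Gldc, the glycine decarboxylase of that system, was at 0.04 FPKM or less in every library. Dld, another gene of that system, measured 79.7 and 89.8 FPKM in PBS and 93.1 and 103 FPKM in 5-FU (adjusted p = 0.207). Tyms, thymidylate synthase and the target of FdUMP, rose from 8.73 and 4.94 to 14.7 and 14.3 FPKM (adjusted p = 0.029). The call was lost in 3 of 15 alternatives for Gcsh, 3 of 15 for Tyms and 2 of 14 for Amt. Shmt1 (-0.51 log2, adjusted p = 0.144) and the mitochondrial folate carrier gene Slc25a32 (-0.21, 0.427) did not pass.

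Of 7 genes of serine and glycine supply, 4 fell and 0 rose by limma (1 at an unadjusted p under 0.05, Phgdh), with a median log2 difference of -1.23. Over all tested genes 31.2% fell and 22.1% rose, with a median of -0.10. Slc1a4, a neutral amino acid carrier for serine, measured 17.1 and 18.8 FPKM in PBS and 1.93 and 1.68 FPKM in 5-FU. Slc1a5, a carrier best known for glutamine, and the glycine carrier gene Slc6a9 fell as well, with log2 differences of -1.51 (adjusted p = 0.00968) and -1.45 (0.00478). Sfxn1, named after its value was seen as the remaining call, carries serine into mitochondria and fell from 32.3 and 28.9 to 12.2 and 12.7 FPKM (adjusted p = 0.00357). Phgdh, the entry enzyme of serine synthesis, measured 175.8 and 199.2 FPKM in PBS and 244.3 and 230.1 FPKM in 5-FU (adjusted p = 0.068), and Psat1 differed by -0.33 log2 (adjusted p = 0.0833). Both depended on the scaling. Phgdh was called higher with median-ratio scaling (0.46 log2, adjusted p = 0.0424) and with the gene span trend removed (0.47, 0.0438), and stood at 0.0086 (0.952) with quantile normalization. Psat1 was called lower with quantile normalization (-0.59, 0.0199) and stood at -0.20 (0.284) with median-ratio scaling. With PBS replicate 1 or 2 left out, the log2 differences were 0.25 and 0.43 for Phgdh and -0.44 and -0.21 for Psat1.

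Of 12 genes listed under the methionine cycle, 10 were tested, 2 rose and 2 fell (median 0.26). The shares over all tested genes were 22.1% higher and 31.2% lower. Amd1, which starts polyamine synthesis, rose by 0.73 log2. Gnmt, a glycine methyltransferase, was called higher at 0.241 and 0.0199 FPKM in PBS and 1.59 and 1.49 FPKM in 5-FU. It passed the filter on low values only through the 5-FU libraries, so a gene at that level had to differ, and its log2 difference ran from 1.17 with a pseudocount of 1 to 3.02 with 0.1. Mtap, which salvages methylthioadenosine, and Ahcyl1 fell, with log2 differences of -0.77 and -0.49. Ahcy, a separate gene of the list, differed by 0.16 log2 and did not pass (adjusted p = 0.393). Ahcyl1 lost its call in 5 of 15 alternatives, among them median-ratio scaling (-0.36, adjusted p = 0.0878) and removal of the gene span trend (-0.29, 0.143), and the others were no filter (0.0626) and either 5-FU library left out (0.257 and 0.231). Mtr, the folate-dependent methionine synthase, differed by -0.41 log2 (adjusted p = 0.12).

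Mthfd2, Shmt2, Aldh1l2 and Mthfd1l are known as targets of the stress transcription factor ATF4, so its other targets were read beside them. Of 16 ATF4 list genes, 15 were tested, 4 rose and 7 fell (median -0.80). Of all tested genes, 22.1% were called higher and 31.2% lower. Atf4 itself rose from 330.6 and 344.7 to 546.7 and 522.8 FPKM (adjusted p = 0.00927), and Atf5, Sesn2 and Slc3a2 rose by 1.26, 0.96 and 0.81 log2. Chac1, which degrades glutathione, Vldlr, a lipoprotein receptor gene, and Trib3, a pseudokinase gene, fell, with log2 differences of -2.62, -2.60 and -2.31. Of the 4 one-carbon genes named above, Aldh1l2 and Mthfd1l fell, and Mthfd2 and Shmt2 did not pass. The PBS libraries were themselves unequal in this list. PBS replicate 2 exceeded replicate 1 in 11 of 15 tested genes (median 0.45 log2), against 42.4% of all tested genes, and the part of that difference in the calls was not tested. More genes of the ATF4 list were called with either PBS library left out, and fewer with either 5-FU library left out. The same held over all tested genes, so this movement was not particular to the list.

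**Figure D5:**
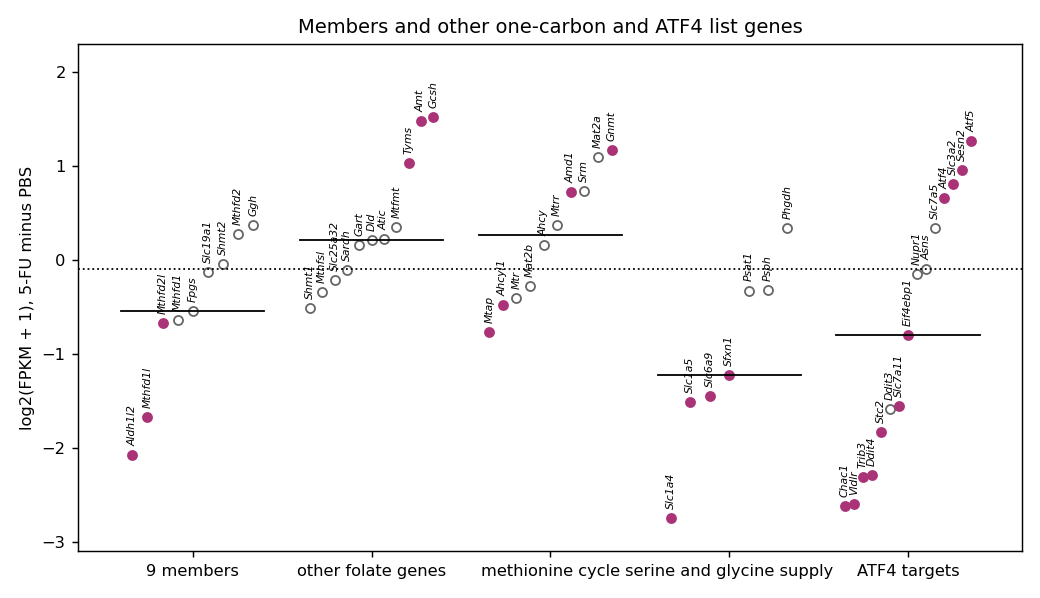
Log2 difference (5-FU minus PBS) of tested genes in the set and in 4 lists of related genes, filled where called; short lines are medians over all tested genes of a list, some of which are not drawn among the other folate genes, and the dotted line is the median of all tested genes. The 4 carriers Slc1a4, Slc1a5, Slc6a9 and Sfxn1 lie at -1.23 or below, and Gcsh and Amt stand highest among the other folate genes.

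Leaving out a library moved these list counts widely, as it did the counts over all tested genes. With all libraries, the shares called higher and lower were 30.8% and 7.69% for folate genes and 20% and 20% for the methionine cycle. They were 0% and 57.1% for serine and glycine supply and 26.7% and 46.7% for the ATF4 list. Over the 4 lists together 10 of 45 tested genes were higher and 14 lower (22.2% and 31.1%, near the 22.1% and 31.2% of all tested genes). Fewer list genes were called with either 5-FU library left out and more with either PBS library left out. The counts over all tested genes moved the same way.

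The genes whose 4-library pattern was nearest to a member were found by the Euclidean distance of centred log2(FPKM + 1) values over the 4 libraries. For Mthfd2 they included Gpr107 and Cdca2 (distances 0.0149 and 0.0167), for Shmt2 they were Haus5, Pradc1 and Cnksr1 (0.022 to 0.0421), and for Mthfd1 they were Dctd, BC017158 and Rgp1 (0.0123 to 0.0275). Dctd, the deoxycytidylate deaminase that supplies dUMP, measured 18.4 and 11.6 FPKM in PBS and 9.11 and 8.88 FPKM in 5-FU. Among 11644 tested genes with 4 values each, near patterns can arise without any link between the genes, and no link was tested.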

How the data were processed

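MC38 cells were given PBS or 5-FU, with 2 libraries per group of polyadenylated RNA, per the labels. The authors deposited 1 table of FPKM values with a column per library. Per the submitters' processing notes, STAR 2.4.1a and Picard 2.9.0 were used with GRCm38, with no roles stated. The counting program, annotation and any use of strand were not given in the sources used here. Gene IDs were matched to GENCODE M21 (GRCm38), which held 36379 of 36445, for positions and lengths. Depth was estimated from the smallest common step of FPKM times exonic length; 60.9% to 65.1% of values below 100 reads lay within 0.02 of a whole read, so depths are estimates and floors cover counting error only.

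Genes that reached 1 FPKM in 2 or more libraries were compared with limma 3.58.1 in R 4.3.3 (lmFit, eBayes with trend) on log2(FPKM + 1), a scale that understates changes of low genes. P-values were adjusted by Benjamini-Hochberg over all tested genes, and limma gives every adjusted p here unless another is named. Folds are ratios of mean FPKM. The members and lists were chosen with earlier results of these data known. Named were all 9 members, up to 3 called genes per list and direction by size (or the 2 smallest p), the 3 nearest patterns of Mthfd2, Shmt2 and Mthfd1, and Tyms, Shmt1, Mtr, Slc25a32, Phgdh, Psat1 and Atf4. A few genes that this rule names are counted in their lists but not reported here. Alternatives were pseudocounts 0.5 and 0.1, other filters, scalings and variance settings, a replicate block, each library left out, and removal of the trend with gene span by loess.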

Additional observations from a re-analysis of the deposited data

How the results depend on the processing

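The direction of Aldh1l2, Mthfd1l, Mthfd2l, Mthfd1, Fpgs, Mthfd2 and Ggh was kept in all 15 alternatives. The median log2 difference of all tested genes moved from -0.10 to 0.01 with median-ratio scaling and 0.02 with quantile normalization. With median-ratio scaling, and without mitochondrial and ribosomal protein genes, 1 member was called higher, Mthfd2 (0.40, and 0.32 at adjusted p = 0.0467), and Shmt2 turned to 0.082 and 0.00071. Slc19a1 turned to 0.17 with quantile normalization and 0.023 with the gene span trend removed, which was chosen after seeing the data and took Mthfd2l to -0.19 and Mtr to 0.032. Slc25a32 ranged from -0.47 to 0.047 over the single libraries left out. A mean of at least 5 FPKM left 2158 genes lower, as fewer were tested, and no filter left 5 list genes higher. The replicate numbers do not pair the libraries by label, and the correlation of same-numbered deviations was -0.01 over tested genes; with the replicate block Mthfd1 passed (-0.64, adjusted p = 0.0294), 2484 genes were higher and 3553 lower, and no other member's call changed.

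Leaving out each library in turn gave 0 to 2 members higher and 1 to 7 lower, 259 to 4385 genes higher and 237 to 5249 lower, and 0 to 19 list genes higher and 3 to 22 lower. Log2 differences then ranged from -0.27 to 0.19 for Shmt2, -0.95 to -0.33 for Mthfd1, 0.27 to 0.29 for Mthfd2, -0.70 to -0.65 for Mthfd2l, -2.39 to -1.77 for Aldh1l2, -0.90 to -0.19 for Fpgs, 0.20 to 0.53 for Ggh and -0.34 to 0.091 for Slc19a1. A group left with 1 library is taken to vary as the other pair does. Members had at least 469 estimated reads in every library.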

Other observations

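The PBS libraries lay far apart at some genes of the methionine cycle and stress response; these genes were picked out after their values were seen. Mat2a, which makes S-adenosylmethionine, measured 116.3 FPKM in PBS replicate 1 and 27.6 FPKM in PBS replicate 2, and 117.7 and 127.3 FPKM in 5-FU (adjusted p = 0.23). The stress gene Ddit3 measured 32.7 and 173.9 FPKM in PBS and 25.004 and 24.0 FPKM in 5-FU (adjusted p = 0.151). Srm, spermidine synthase, measured 116.4 and 58.1 FPKM in PBS and 141.2 and 134.2 FPKM in 5-FU (adjusted p = 0.131). At each of the 3 genes PBS replicate 1 lay nearer to the 5-FU libraries than to PBS replicate 2.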
